A study of Mus musculus with 2 samples.

Results

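The genes described here encode the collagen IV and laminin chains of basement membranes: Col4a1, Col4a2, Col4a3, Col4a4, Col4a5, Col4a6, Lama5, Lamb1, Lamb2 and Lamc1. They were taken by name from the GENCODE M21 annotation, 10 of 21670 protein-coding genes of the autosomes and chromosome X, and each was read over its gene body with 10 kb added on both sides. Accessible DNA was mapped by DNase-seq, in which DNA ends cut by the enzyme DNase I, mostly in open chromatin, are sequenced. The tissue was whole kidney of female B6CASTF1/J mice, 8 to 10 months old, and the labels name no treatment. B6CASTF1/J is a first-generation cross of C57BL/6J and CAST/EiJ, so that reads of the CAST/EiJ chromosomes may have mapped less well to the reference, which was not tested. There were 2 libraries in 1 group, numbered as biological replicates 1 and 2, with separate tissue samples under the same donor entry and no statement that they came from separate animals. The spread between them may therefore be technical, and a single group of 2 allows no test across samples.

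The main peak lists held 137083 peaks in replicate 1 and 125000 in replicate 2, and the footprint lists 316362 and 312966 footprints. Overlapping peaks of both libraries were joined into shared regions, which kept the highest signal of each library. The signals were whole multiples of a step of 0.00827 in replicate 1 and 0.00834 in replicate 2, and if a step is 1 tag, scaled to M tags (M, mega), the libraries held 120.9 and 119.9 M tags, an inference from the values.

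A basement membrane is a thin sheet of matrix under epithelia and around capillaries, built on a network of collagen IV and a network of laminin. Collagen IV chains wind into trimers. The α1 and α2 chains form the trimer found in nearly every basement membrane, the α3, α4 and α5 chains form the trimer of the mature glomerular filter, and α5 and α6 form one in Bowman's capsule and parts of the tubule. Laminins are trimers of an α, a β and a γ chain, and the α5, β2 and γ1 chains make up the laminin of the mature glomerular basement membrane, where β2 takes the place of β1 after development. The 6 collagen IV genes lie as 3 head-to-head pairs, the members of each pair reading away from a common stretch of DNA.

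Every chain gene had an open promoter. A promoter was counted as open where peaks of both libraries overlapped each other and came within 500 bases of an annotated protein-coding start. This held for 10 of 10 genes, beside 63% of all protein-coding genes (13643 of 21670). With the peaks of either library alone it also held for all 10, beside 64.5% and 65.1% of all genes in replicates 1 and 2. The 10 genes are not all separate observations, since Col4a1 and Col4a2 share their start region, as do Col4a3 and Col4a4. A shared region is counted here for both genes, and that of Col4a3 and Col4a4 enters the median below for both. The deposited peak signal was below the middle of the range when the strongest promoter region of each gene was taken. Its median over the 10 genes was 3.11, against 4.78 over all open promoters taken in the same way. Over all shared regions in promoter windows, weaker ones of a gene included, the median was 2.71. Of the 10 genes 2, Col4a1 and Lamc1, lay above 4.78. Col4a1 did so through a start inside the gene and not through the start it shares with Col4a2. In a whole organ, fewer cells with an open promoter and less open promoters in each cell cannot be told apart.

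**Figure D1:**
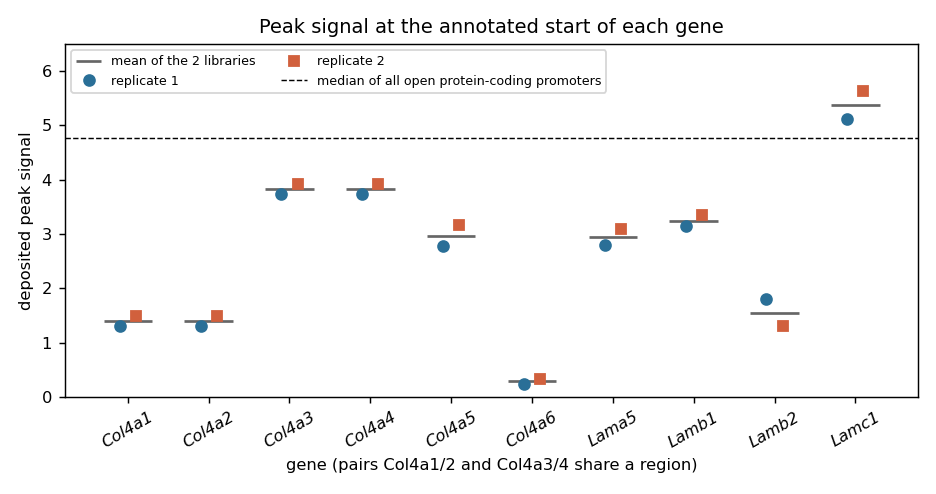
Deposited peak signal (vertical axis) at the annotated start of each of the 10 genes, as points for replicates 1 and 2 and a bar for their mean, with the median of all open protein-coding promoters as a dashed line. Lamc1 lies above the line at 5.37, and Col4a6 lies lowest at 0.287.

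At the start of the first listed transcript of each gene, the order of the mean signals ran from Lamc1 at 5.37 through the Col4a3 and Col4a4 pair at 3.83, Lamb1 at 3.24, Col4a5 at 2.97, Lama5 at 2.94, Lamb2 at 1.55 and the Col4a1 and Col4a2 pair at 1.40 to Col4a6 at 0.287. Not all neighbours in this order were separated by the libraries. The values of Lamb1 and Col4a5 overlapped, as did those of Col4a5 and Lama5 and those of Lamb2 and the Col4a1 and Col4a2 pair. Lamc1, the Col4a3 and Col4a4 pair and Col4a6 stood apart from their neighbours in both libraries. The signal belongs to the highest peak of a region and was not divided by its width, which ran from 260 to 1340 bases.

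Col4a1 and Col4a2 encode the most widespread collagen IV chains, and their annotated starts on chromosome 8 overlap by 22 bases. Col4a1 starts at base 11312826 and reads leftwards, and Col4a2 starts at base 11312805 and reads rightwards. The region shared by the libraries around both starts (chr8:11311621-11312960, mm10) had a signal of 1.31 in replicate 1 and 1.49 in replicate 2, or 1.40 ± 0.132 (mean ± SD, n = 2), which is at percentile 16.9 of all open promoters. The peaks inside the region were listed differently in the 2 libraries. In replicate 1 the highest peak lay in intron 1 of Col4a1, and a separate peak of 260 bases over both starts had a signal of 1.11. Replicate 2 listed peaks that overlap each other, the widest of 1200 bases with a signal of 1.49, which covered the Col4a2 start and ended just before that of Col4a1, and another inside it with 1.11.

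Per base, the deposited false discovery rate (FDR) of the cut rate was also modest at the paired starts. Within 500 bases of the Col4a1 start the best −log10 FDR was 5.53 and 5.33 in the 2 libraries. A stronger point lay 1064 and 1072 bases upstream of the Col4a1 start, inside Col4a2, with 12.1 in replicate 1 and 6.43 in replicate 2. It falls in a shared region in intron 3 of Col4a2 (chr8:11313741-11314080) with signals of 2.08 and 1.81, so that the strongest opening near the paired starts was beside them and not on them.

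By annotation, the strongest promoter region of Col4a1 was 33.2 kb inside the gene (chr8:11279441-11279800). It lies at the annotated start of a shorter coding transcript, in intron 1 of the first listed one. Whether transcription begins there was not tested. The signal of the region was 6.08 in replicate 1 and 4.33 in replicate 2, or 5.20 ± 1.24, at percentile 53.6 of all open promoters. Both libraries were above every value at the paired start. The region held 3 shared footprints, a footprint being a short stretch that was cut less than its surroundings. The sequence is shown because this start, and not the shared one, carries the highest Col4a1 signal. It runs from chr8:11279657 to 11279800 on the minus strand of GRCm38 (mm10), as do all printed genome sequences on the strand of their gene, and capitals mark bases inside footprints of both libraries.
Col4a1 internal start: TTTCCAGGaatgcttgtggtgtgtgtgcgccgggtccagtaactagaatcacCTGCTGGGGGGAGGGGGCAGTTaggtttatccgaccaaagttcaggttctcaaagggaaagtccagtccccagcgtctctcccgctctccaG
Of the 144 bases, 31 were inside footprints of both libraries, and the longest run of capitals is rich in guanine. A TEAD match (GGAATG) at bases 7 to 12 had 2 of its bases in a footprint.

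Outside promoters, both genes carried many weak regions and few strong ones. Col4a1 had 15 shared regions in 134404 bases and Col4a2 had 23 in 156483 bases, the most of the 10 genes. That is 1.12 and 1.47 per 10 kb, at percentiles 70.5 and 81.6 of all protein-coding genes. By mean signal, the strongest outside a promoter was in intron 2 of Col4a1 (chr8:11253621-11253800), with signals of 2.07 and 4.05, and the strongest of Col4a2 was in intron 4 (chr8:11392881-11393100), with 2.09 and 3.77. Both were higher in replicate 2, by 0.97 and 0.85 on the log2 scale, and neither was the strongest in replicate 1. There a region in intron 21 of Col4a1 (chr8:11234901-11235260) had 2.46, and one downstream of Col4a2, inside Rab20 (chr8:11459095-11459500), had 2.86.

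Col4a3 and Col4a4 encode the chains that, with α5, form the collagen of the mature glomerular basement membrane. Their starts on chromosome 1 are separated by 126 bases, with Col4a4 reading leftwards from base 82586849 and Col4a3 rightwards from base 82586976. A single shared region covered the gap (chr1:82586741-82587180). Its signal was 3.73 in replicate 1 and 3.93 in replicate 2, or 3.83 ± 0.140, at percentile 42.2 of open promoters. By peak signal it was the strongest start region of the 3 collagen pairs in both libraries. By best −log10 FDR the Col4a5 start was higher, with 53.7 and 48.5 against 13.7 and 15.9 here.

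Within the region, replicate 1 placed its peak of 220 bases over the Col4a4 start and short of the Col4a3 start at base 82586976. That peak ended at base 82586960 and covered base 82586921, where the annotation of Col4a3 begins with another transcript. Replicate 2 placed a peak of 420 bases over all of these starts. The best −log10 FDR was 13.7 and 15.9. It lay 48 bases upstream of the Col4a4 start in replicate 1 and 61 bases inside Col4a3, from base 82586976, in replicate 2. Between the annotated exons lie 71 bases (chr1:82586850-82586920, shown on the strand of Col4a3), printed because they are the DNA between the first exons of the pair.
Col4a3-Col4a4 gap: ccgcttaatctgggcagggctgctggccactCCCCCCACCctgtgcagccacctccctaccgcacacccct
The 9 capital bases form the common part of a footprint of 18 bases in replicate 1 and 9 in replicate 2. A KLF match (CACCC) begins inside it, with 4 of its 5 bases in capitals. No TATAAA was found in this promoter or in that of any of the 10 genes, beside 12.6% of all promoters. The region held 3 shared footprints in all, the other two inside the first exon of Col4a3.

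**Figure D2:**
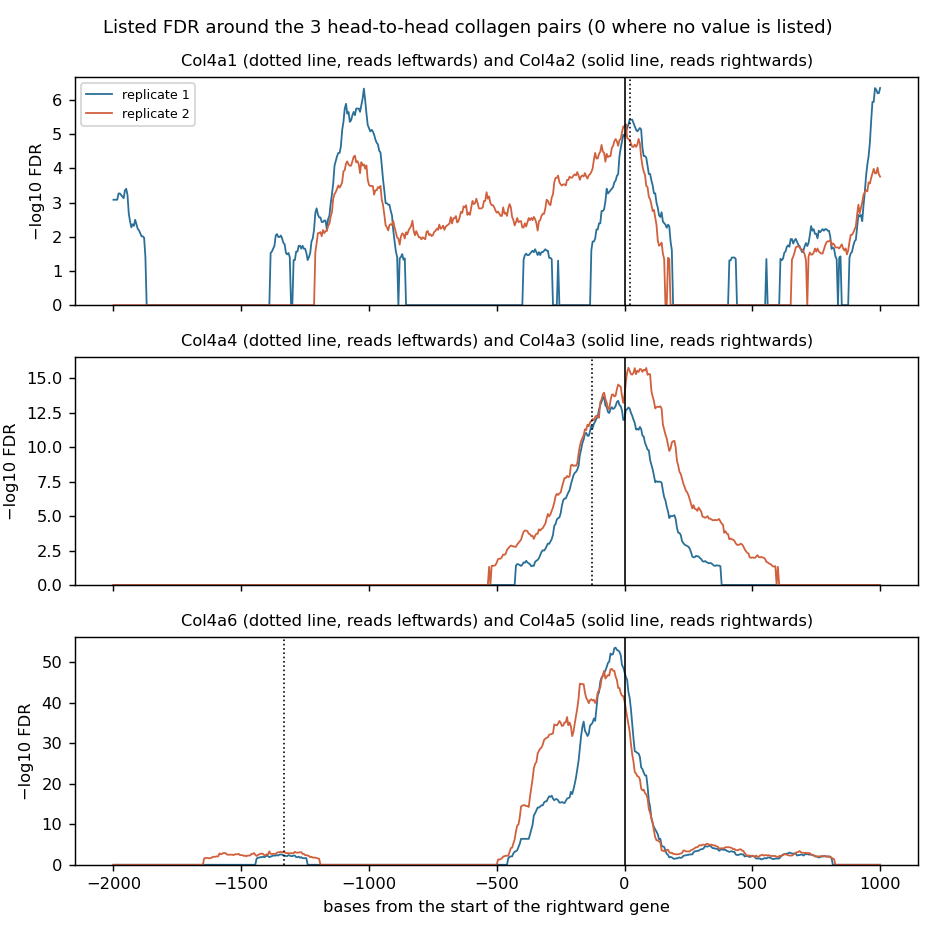
−log10 FDR of the cut rate per base (vertical axes) in replicates 1 and 2 around the 3 collagen pairs, against distance in bases from the start of the rightward gene, with 0 where no value is listed. The Col4a3 and Col4a4 pair has 1 summit between and on its starts, the Col4a5 start rises to 53.7 and 48.5, and the Col4a6 start stays at 2.53 and 3.31.

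Col4a3 held more strong regions outside promoters than any other of these genes. Of the 10 strongest such regions over all 10 genes, 5 lay in the Col4a3 window, all in intron 1 or upstream of it. The strongest was in intron 1, 47.7 kb inside the gene (chr1:82634541-82634900). It had a signal of 9.28 in replicate 1 and 8.03 in replicate 2, or 8.65 ± 0.882, above 99.4% of all shared regions outside promoters. It was stronger in both libraries than the promoter of the pair. The central 300 bases (chr1:82634571-82634870) are shown because of this rank.
Col4a3 intron 1: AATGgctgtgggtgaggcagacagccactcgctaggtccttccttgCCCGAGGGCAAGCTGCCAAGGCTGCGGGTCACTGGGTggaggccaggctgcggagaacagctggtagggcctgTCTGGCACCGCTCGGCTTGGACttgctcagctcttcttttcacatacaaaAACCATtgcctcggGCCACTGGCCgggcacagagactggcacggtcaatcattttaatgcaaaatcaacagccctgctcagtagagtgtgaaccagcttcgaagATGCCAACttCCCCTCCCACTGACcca
This stretch held 101 bases inside footprints of both libraries, in runs spread over its whole length, and the region as a whole held 6 shared footprints. None of the motifs searched lay whole inside a footprint here.

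The next regions of the pair were weaker. One in intron 1 of Col4a4, which is also 8.98 kb upstream of Col4a3 (chr1:82577901-82578100), had 3.51 and 3.89. In intron 1 of Col4a3, regions at chr1:82590301-82590580, chr1:82605981-82606220 and chr1:82597301-82597500 had 3.62 and 3.26, 3.84 and 2.40, and 2.63 and 3.26. Away from the common promoter, the stronger regions of the pair lay in intron 1 of either gene. Beyond intron 1, the regions of Col4a4 had mean signals of at most 0.710. Col4a3 had a region in intron 2 there (chr1:82641384-82641960, 1.81) and otherwise only the neighbour's promoter named below. The Col4a3 window had 12 shared regions and 22 shared footprints in 155139 bases, and that of Col4a4 had 10 and 10 in 158427 bases. One region in the Col4a3 window, 137.9 kb from the start (chr1:82724781-82724980, 5.89 ± 0.463), lies in the promoter of the neighbouring gene Mff, which acts in mitochondrial fission.

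Col4a5 and Col4a6 lie on chromosome X, with 1333 bases between their starts and no common region. Col4a5 encodes the third chain of the glomerular collagen. Its promoter (chrX:141475081-141475480) had a signal of 2.78 in replicate 1 and 3.16 in replicate 2, or 2.97 ± 0.270, at percentile 33.8 of open promoters. Col4a6, whose product pairs with α5 outside the glomerular filter, had 0.240 and 0.334 (chrX:141473781-141474200), or 0.287 ± 0.0663, at percentile 0.733. The Col4a5 start was 11.6-fold stronger in replicate 1 and 9.48-fold stronger in replicate 2, or 10.4-fold between the means.

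Col4a6 was the weakest of the 10 promoters in each library and the only one with no footprint in either. Its best −log10 FDR near the start was 2.53 and 3.31, against 53.7 and 48.5 for Col4a5. In the shorter, stricter peak lists it was found in replicate 2 alone, so that with these lists 9 of the 10 promoters were open, beside 58.9% of all protein-coding genes. Its 29 and 40 signal steps, read as tags, leave a counting SD of 0.35 for the log2 ratio of the libraries, which is 0.48.

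Values on chromosome X were lower as a whole. Of 948 protein-coding genes there, 44.8% had an open promoter, against 63.8% of 20722 on chromosomes 1 to 19, and the medians of the open ones were 2.58 and 4.87. Set against chromosome X alone, Col4a5 was at percentile 55.1 and Col4a6 at percentile 1.88. The regions were also sparse, with 0.214 and 0.274 per 10 kb for Col4a5 and Col4a6, but the median over chromosome X was 0.214.

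The 300 bases upstream of the outermost annotated Col4a5 exon (chrX:141475085-141475384) are shown. They hold the best base of both libraries and, whole or in part, all 4 shared footprints of the promoter.
Col4a5 upstream: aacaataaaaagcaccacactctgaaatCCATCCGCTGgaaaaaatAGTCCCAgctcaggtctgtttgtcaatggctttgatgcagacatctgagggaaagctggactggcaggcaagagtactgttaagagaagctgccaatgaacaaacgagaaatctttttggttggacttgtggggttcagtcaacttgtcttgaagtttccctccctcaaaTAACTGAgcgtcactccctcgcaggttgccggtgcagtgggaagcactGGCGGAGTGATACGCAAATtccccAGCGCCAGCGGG
In these letters 55 bases were inside footprints of both libraries. The 2 footprints nearest the start of the first listed transcript, base 141475410, were centred 52 and 25 bases upstream of it. The nearer one ends before that start. It runs into the exon of another transcript, which begins at base 141475385, and there covers a GC box (GGGCGG). The CCAAT match at bases 139 to 143 was outside footprints. Beyond the starts there was little: the only region of Col4a5 outside promoters had 0.223 and 0.225 (chrX:141690981-141691169, downstream of the gene), and the strongest of Col4a6 by mean had 0.322 and 0.775 (chrX:141212941-141213120, intron 13). In replicate 1 the regions downstream of Col4a6 were higher, with 0.455 and 0.389.

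Lama5 encodes the α5 chain shared by the main laminins of adult kidney. Its promoter (chr2:180225781-180226040) had a signal of 2.79 in replicate 1 and 3.09 in replicate 2, or 2.94 ± 0.211, at percentile 33.5. The bases upstream of its exon (chr2:180225860-180226040, minus strand) are shown for a footprint with the same ends in both libraries.
Lama5 upstream: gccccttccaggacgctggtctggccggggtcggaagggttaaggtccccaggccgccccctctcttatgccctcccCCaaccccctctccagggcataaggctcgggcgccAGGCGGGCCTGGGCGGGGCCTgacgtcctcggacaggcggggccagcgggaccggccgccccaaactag
That footprint is the run of 21 capitals, AGGCGGGCCTGGGCGGGGCCT (chr2:180225908-180225928), and it contains 1 of the 3 GC box matches of this stretch whole. Of the 132 shared footprints around the 10 genes, 5 had identical ends in both libraries.

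The strongest region outside promoters for any of the 10 genes was in intron 2 of Lama5, 8028 bases inside the gene (chr2:180217721-180217940). It had a signal of 12.3 in replicate 1 and 12.7 in replicate 2, or 12.5 ± 0.232, above 99.8% of all shared regions outside promoters. This is over 4 times the Lama5 promoter in each library. The whole region of 220 bases is shown because of this rank.
Lama5 intron 2: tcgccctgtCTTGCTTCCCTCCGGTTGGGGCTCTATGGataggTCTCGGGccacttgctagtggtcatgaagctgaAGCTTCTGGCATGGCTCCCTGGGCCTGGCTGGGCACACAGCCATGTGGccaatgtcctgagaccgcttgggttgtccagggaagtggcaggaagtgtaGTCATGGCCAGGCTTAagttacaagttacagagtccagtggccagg
It held 4 footprints in each library, all 4 shared, and 100 of its bases were inside footprints of both. The single CCAAT match lay between footprints, and no other motif searched was found.

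Lama5 was also the most densely marked of the 10 genes. Its window of 69487 bases had 14 shared regions, or 2.01 per 10 kb, at percentile 91.2 of all protein-coding genes. It held 32 shared footprints, or 4.61 per 10 kb, at percentile 90.2. The bases listed at an FDR under 0.05 made up 9.02% of the window in replicate 1 and 12.5% in replicate 2, the highest shares of the 10 genes in both. One region 54.4 kb from the start (chr2:180171341-180171600, 8.95 ± 0.857) lies in the promoter of Adrm1, which encodes a ubiquitin receptor of the proteasome.

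The β chains differed in where their signal lay. Lamb1, the β chain of most tubular and developing basement membranes, had 3.14 and 3.34 at its promoter (chr12:31265061-31265340), or 3.24 ± 0.142, at percentile 36.7. Lamb2, the β chain of the mature glomerular filter, had 1.79 and 1.31 (chr9:108479741-108480140), or 1.55 ± 0.343, at percentile 18.8. The Lamb1 promoter was higher than that of Lamb2 in both libraries. Lamb2 was the only one of the 10 genes with a lower start signal in replicate 2.

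By mean signal, both β genes had a stronger region just upstream of the promoter. For Lamb1 it lay 1.19 kb upstream (chr12:31263941-31264260), with 6.04 in replicate 1 and 3.002 in replicate 2, and a further one lay 8.65 kb upstream (chr12:31256521-31256760), with 5.55 and 2.77. In replicate 1 both were stronger than the promoter, and in replicate 2 both were weaker. For Lamb2 the region lay 0.956 kb upstream (chr9:108478701-108479100), with 2.28 and 3.27, stronger than its promoter in both libraries. Lamb2 is short, at 10795 bases, and had 4 shared regions, of which the strongest (chr9:108490581-108490800, 9.68 ± 2.07) lies in the promoter of its neighbour Usp19, a deubiquitinase gene.

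A footprint at the Lamb1 promoter of 10 bases in replicate 1 and 17 in replicate 2 was centred 112 bases upstream of the start (chr12:31265173-31265189). It is shown because it ends in a whole KLF match.
Lamb1 promoter footprint: gacctcaACCCCCACCC
The 300-base promoter of Lamb1, from 250 bases before to 50 after the first start, was the only one of the 10 with both forms of the EGR and WT1 core, GCGTGGG and GCGGGGG. These were found in 5.83% and 12.8% of all promoters.

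Lamc1 encodes the γ1 chain, common to most laminins of the kidney, and had the strongest start of the 10 genes by peak signal. Its signal was 5.11 in replicate 1 and 5.63 in replicate 2, or 5.37 ± 0.366, at percentile 54.8. The peaks did not cover the annotated start. They lay upstream of it, with the centre of the region (chr1:153332841-153333260) 0.265 kb before the start. A second region lay mostly over the first exon, short of the start (chr1:153332101-153332560), with 1.59 and 1.61. The best −log10 FDR was 86.4 and 37.9, and all 1001 bases around the start were listed at an FDR under 0.05 in both libraries.

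This promoter held 7 shared footprints in its region, the most of the 10 promoters. Elsewhere Lamc1 was sparse, with 5 shared regions in 133865 bases, or 0.374 per 10 kb, at percentile 31.9. Its strongest region outside promoters by mean was in intron 5 (chr1:153251601-153251880), with 1.69 and 0.950. In replicate 2 a region upstream of the gene (chr1:153333681-153334040) was higher, with 0.926 and 1.05.

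Over all promoters of 300 bases, GC boxes were found in 7 of the 10 genes, beside 44.2% of 21665 promoters, and CCAAT in 4 (Col4a1, Col4a2, Col4a5 and Lamb1), beside 38.8%. CACCC was found in 8 of 10, beside 58.2%. The 300-base promoters of Col4a1 and Col4a2 overlap, as do those of Col4a3 and Col4a4, so that a match can count for both genes. Every search covered both strands, and the GC box, EGR and WT1 and KLF letters can overlap. Within footprints the GC box was close to the background: 12.9% of the 132 shared footprints, with 5 bases added on each side, held one, beside 12.4% of all shared footprints. Other motifs were not all as close. CACCC was in 9 of the 132, or 6.82%, beside 10.1%, and GCGGGGG in 5, or 3.79%, beside 1.98%. CCAAT was in 7, or 5.30%, beside 4.78%. CpG was taken as the ratio of the observed number to that expected from the C and G counts. By this ratio the promoters ranged from Col4a6, 0.172 at percentile 20.5 of all promoters, to Col4a1, 0.902 at percentile 84.6. The weakest start thus also had the lowest ratio, but the promoter with the highest was not the strongest.

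**Figure D3:**
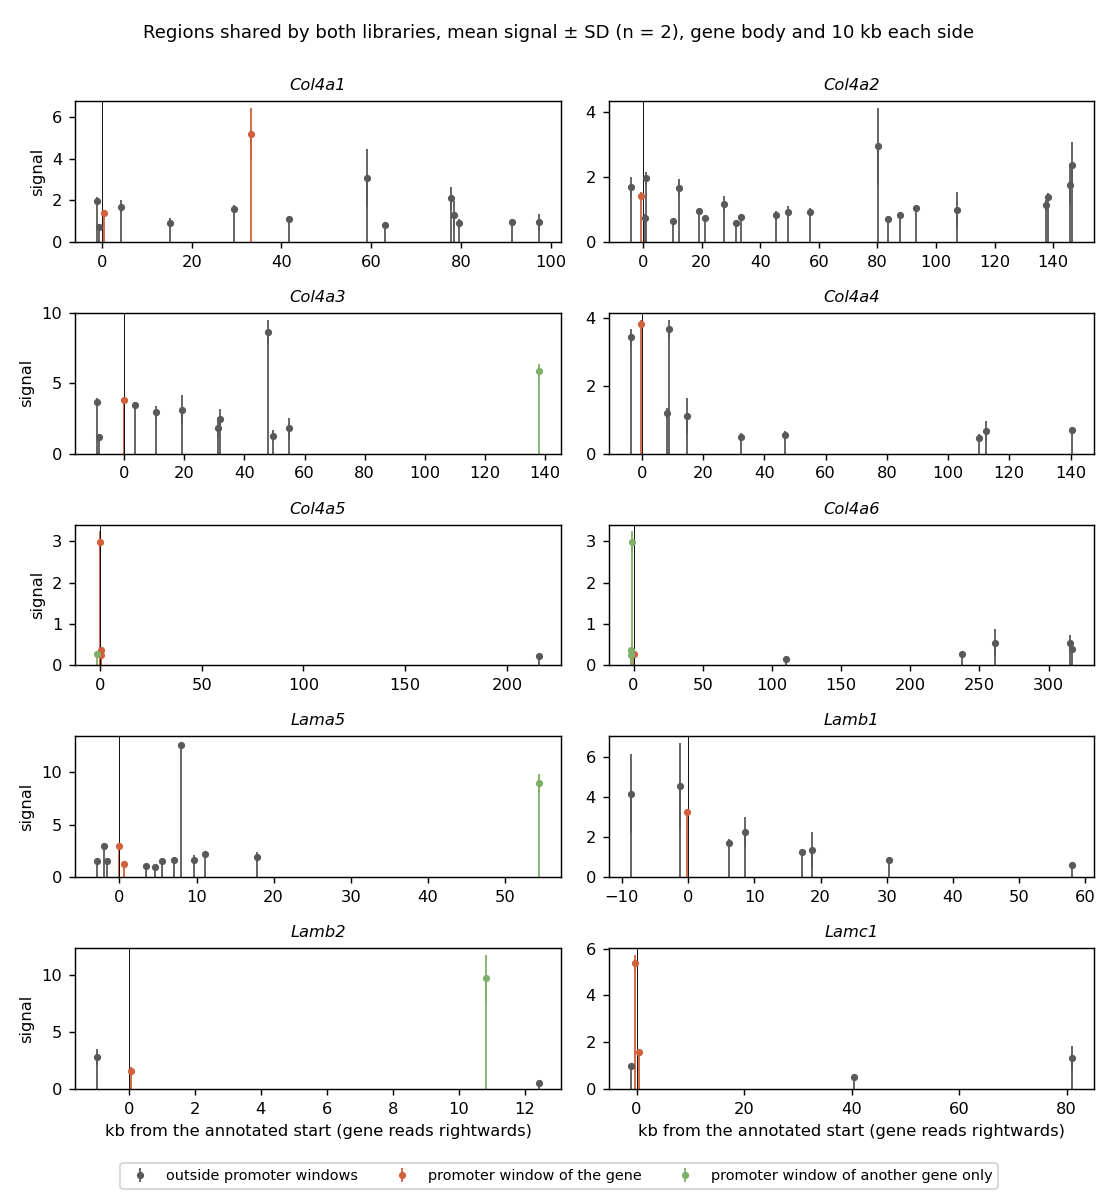
Mean signal ± SD of the 2 libraries (vertical axes) for each shared region in the gene body and 10 kb on both sides, against distance in kb from the annotated start, with gene direction to the right. The strongest region lies inside intron 2 of Lama5, at 12.5, and Col4a5 and Col4a6 have little beyond their starts.

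Taken as a set of windows, the 10 genes held 94 shared regions, of 96746 in all. Of these, 13 lay in a promoter window of one of the genes, 3 only in that of a neighbour, and 78 outside promoters. The 78 comprised 57 in introns, 1 over an exon, 11 upstream and 9 downstream. Their median signal was 1.15, against 0.918 for all shared regions outside promoters. The genes are long, with a median body of 124772 bases against 17378.5, and the number of regions has to be read per length: the median was 0.920 per 10 kb, against 0.677 over all protein-coding genes, and 6 of the 10 genes were above it. Those 6 were Col4a1, Col4a2, Col4a3, Lama5, Lamb1 and Lamb2. A shared footprint was present in 62 of the 94 regions, or 66.0%, beside 66.1% of all shared regions, and 58 of the 94, or 61.7%, had a peak in both shorter lists, beside 67.9%. Peaks that overlapped no peak of the other library numbered 39 of 137 in replicate 1 and 28 of 126 in replicate 2. They reached a signal of at most 1.36 and 1.67. The share of peaks that did overlap was 71.5% and 77.8%, near the 72.4% and 79.2% of all peaks.

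Most regions had like signals in both libraries. Of the 94, 7 differed by over 2-fold, or 7.45%, beside 11.9% of all shared regions, and 53 were lower in replicate 2, or 56.4%, beside 50.6%. The other 41 were higher, where 49.4% of all shared regions were. The 7 were spread over 5 genes. Lamb1 had 3, all lower in replicate 2: both upstream regions, with log2 ratios of -1.01 and -1.003, and a region in intron 7 (chr12:31283801-31284130) with 1.98 and 0.750 and a log2 ratio of -1.40. Col4a1 had 1 lower in replicate 2, and Col4a2, Col4a4 and Col4a6 had 1 each that was higher. If 1 signal step is 1 tag, the counting SD of these 7 log2 ratios was between 0.0929 and 0.275, which covers counting error only and not the variation between samples.

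**Figure D4:**
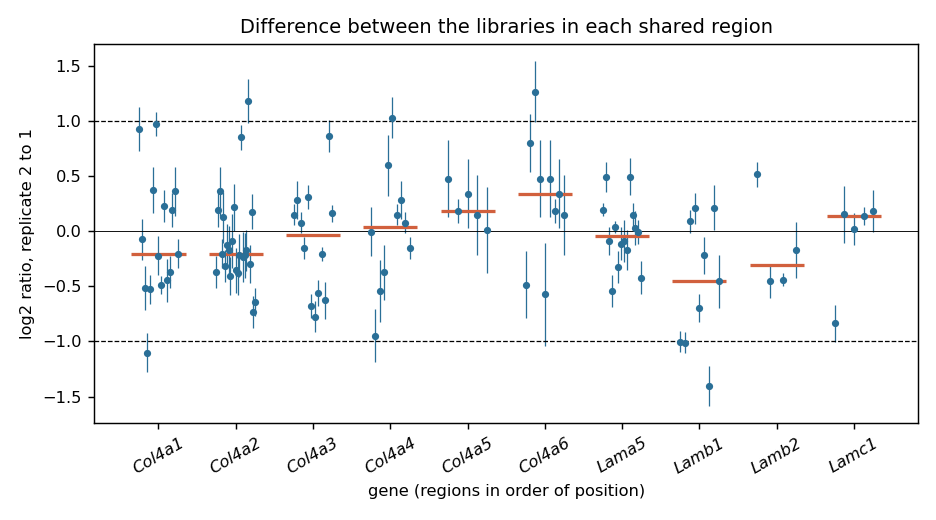
Log2 ratio of replicate 2 to replicate 1 (vertical axis) for each shared region, grouped by gene in order of position, with error bars of 1 counting SD, the median of each gene as a bar and dashed lines at 2-fold. Lamb1 has the lowest median, -0.45, and Col4a6 the highest, 0.34.

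By gene, the median log2 ratio was lowest in Lamb1 at -0.45 and Lamb2 at -0.31 and highest in Col4a6 at 0.34. Marker genes of some kidney cell types moved between the libraries as well. The promoters of the 3 thick ascending limb markers were all lower in replicate 2, with summed signals of 13.2 and 8.25, and the 4 open ones of 5 mesangial, mural and stromal markers were all higher, with 4.32 and 7.73. The other lists were mixed. Summed over 5 endothelial markers the signals were 11.2 and 10.3, with 3 markers higher in replicate 2 and 2 lower. Over 5 proximal tubule markers they were 17.9 and 16.8, with 2 higher and 3 lower. Summed over the open podocyte markers the signals were 3.31 and 3.78, with 2 higher and 1 lower. Nphs1, which encodes a protein of the slit diaphragm, had no open promoter. In the distal and collecting duct list 2 of 3 were open, and Aqp2 was not. The open ones had sums of 6.02 and 7.13, with 1 higher and 1 lower. No immune marker of 3 and none of 4 markers of other tissues was open. The part of cell makeup in the differences between the libraries was not tested.

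Among 46 other genes of basement membranes, 38 had an open promoter, beside the 63% of all protein-coding genes. Their median signal was 2.83, also under that of all open promoters. Of 7 other laminin chains 6 were open, led by Lama1 at 2.69 ± 0.345 and Lama3 at 1.91 ± 0.00635. All 6 had lower means than Col4a5, Lama5, Lamb1 and Lamc1. Lamb2, at 1.55, had a lower mean than Lama1, Lama3 and Lamc3, the last at 1.69 ± 0.873. Lamb3, a chain of epidermal laminin, had no open promoter but 24 shared regions in its window. Of 8 nidogens and proteoglycans 5 were open. Hspg2, the gene of perlecan, had 4.80 and 9.67, and Agrn, the gene of agrin, had 4.31 and 4.38. Nid1, the gene of a nidogen that links laminin to collagen IV, was not open, nor were Col15a1 and Smoc2. Nid2, also a nidogen gene, was open with 2.95 and 4.09. Nid1 was open with the peaks of replicate 1 alone and in windows of 2000 bases, and Lamb3 was open in those windows.

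The highest single values were in genes of collagen processing, although the receptor list had the higher median over its open promoters, 4.52 against 4.04. Of 11 processing genes 10 were open, led by P4hb at 22.1 ± 4.36, a subunit of prolyl hydroxylase, and Colgalt1 at 14.4 ± 2.87, which adds galactose to collagen, and the crosslinking enzyme gene Loxl2 was not open. The range reached down to Lox at 0.382 ± 0.167, another crosslinking enzyme gene, named after its value was seen. All 9 receptor genes were open, led by Dag1, the gene of dystroglycan, at 13.5 ± 2.31 and the integrin gene Itga1 at 8.68 ± 0.324. Of 11 other matrix genes 8 were open, led by Tinag at 3.60 ± 1.51 and Tinagl1 at 3.45 ± 0.414, which encode tubulointerstitial nephritis antigen and its relative. Col6a1 and the matrix protease genes Mmp2 and Mmp9 were not, but Mmp2 was open with the peaks of replicate 2 alone and Mmp9 in windows of 2000 bases.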

How the data were processed

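For each library the authors deposited 2 peak lists, a list of base runs with a false discovery rate (FDR) and a footprint list, all on assembly mm10 and made separately per library from its filtered alignments, per the file headers. No aligner or caller is named in the sources used here. Column 7 of the peak lists holds the authors' signal, whose scaling is not stated. The FDR list holds a q-value per run as deposited by the authors, none above 0.05. Each footprint carries the same deposited p-value or q-value level of 0.01, a threshold and not a value per site.

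The longer peak list was used, and the shorter one as a stricter alternative. Peaks of both libraries that overlapped by at least 1 base were joined, as were footprints. Values are the mean ± SD of the 2 libraries. Coordinates are 1-based on mm10 (GRCm38), genes are GENCODE M21, and sequence is from the RefSeq copy of GRCm38.p6, in which the first coding bases of all 10 genes read ATG. Intron and exon numbers follow the first listed transcript. Percentiles are among all protein-coding genes or all shared regions of the same kind. Those of promoter signals are among open genes, each taken by its strongest promoter region. The motifs searched were the GC box as GGGCGG, the CCAAT box by its name, the TATA box as TATAAA, the ETS core as CCGGAAG, AP-1 as TGANTCA, the E-box as CACGTG, the homeodomain core as TAATTA, SOX as ACAATG, the EGR and WT1 core as GCGTGGG or as GCGGGGG, KLF as CACCC, TEAD as GGAATG, and HNF1, NRF1 and CTCF by their names. A match is a description, not a bound site.

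The genes and lists were chosen with earlier results of these data known. All 10 genes are described, with the strongest region outside promoters of each and the 10 strongest of all. Of each list of other basement membrane genes, the 2 strongest open promoters and every gene with none are named. Lamc3, Nid2 and Lox are named besides, after their values were seen. Counting SDs assume 1 tag per signal step. Scripts were tested on simulated data and ran in Python 3.11.15 with numpy 2.4.6, pandas 2.3.3, pysam 0.24.0 and matplotlib 3.10.9. Alternatives were stricter lists, other windows, flanks and overlaps, each library alone and a rescaled signal. A marker gene and a sequence are not reported here.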

Additional observations from a re-analysis of the deposited data

How the results depend on the processing

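No paired analysis was possible because there is 1 group. With the shorter peak lists, 59 shared regions lay around the 10 genes in place of 94, and with peaks at or above the median signal of their library 62. Each library alone gave 123 to 137. Shared footprints fell from 132 to 76 in the gene bodies alone and to 5 where both ends had to be identical, and each library alone had 330 to 338. All 10 promoters were open under every alternative run except the shorter lists and the peaks above the median, where 9 were, without Col4a6. With the shorter lists or a rescaled signal, each promoter value moved by less than its SD over the 2 libraries. The shorter lists gave 1.30 for Col4a2, below both of its values in the longer lists, and no value for Col4a6. Among the other basement membrane genes 35 were open with the shorter lists and 41 in windows of 2000 bases, which added Lamb3, Nid1 and Mmp9, against 38. The scaling of the signal is not stated, and the mapping of the CAST/EiJ reads was not tested.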
